A study of Mus musculus with 4 samples.

Results

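The 10 genes described here encode plasma proteins best known as products of the liver, and they were measured in kidney RNA of thalassemic and control mice. They are the fetuins Ahsg and Fetub, the carrier proteins Alb, Rbp4, Ttr and Ambp, the apolipoproteins Apoa1, Apoa2 and Apoh, and the acute-phase protein Orm1. The genes were named one by one and were chosen on values of this same contrast: their Th3-over-control ratios were already known. Those ratios are therefore a description, with no test. The other gene lists below were also chosen with earlier results of these data known, so their counts beside those of all genes are descriptions too. All 10 had a probe among the 17628 genes measured. Albumin is named Alb1 in the array files and was matched to Alb through its accession.

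The study set kidneys of Th3 mice against control kidneys, with 4 Th3 and 4 control RNA samples. Th3 mice model beta-thalassemia, an inherited anaemia, and carry a deletion of both adult beta-globin genes, beta-major and beta-minor. Each of 4 two-colour arrays carried cRNA from 1 Th3 and 1 control sample, each made from 500 ng of total RNA. Th3 RNA was in Cy5 on arrays 1 and 2 and in Cy3 on arrays 3 and 4. The labels give the controls no further description, and they state no age, sex, strain background or zygosity. They do not say that each sample was a separate animal, so the spread between arrays may be technical. Markers of the labelled tissue were present: 16 of 16 proximal tubule genes and 10 of 10 genes of other nephron segments were well above background on all 4 arrays in both groups. Between 61.8% and 72.2% of the probes cleared background in each sample, with 0 saturated spots. Precision is limited by having 4 arrays. In whole kidney, fewer cells of a type and less RNA per cell cannot be told apart.

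Hepatocytes secrete most of the protein dissolved in plasma, and albumin is the most abundant of it. The kidney filter holds back large proteins but lets small ones through, and proximal tubule cells recover what is filtered with the receptors megalin and cubilin and break it down in lysosomes. Protein taken up in this way carries no messenger RNA, so an array reads only transcripts made in the cells sampled. Some of these genes are also transcribed elsewhere, such as Rbp4 in fat and Ttr in the choroid plexus.

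Below, a ratio is the log2 ratio of Th3 over control on 1 array, and ± is the SD over the 4 arrays. A value given without an array is limma's estimate of Th3 over control from the other arrays. In it both dye orientations count equally, so it can differ from the plain mean of those arrays. A level is the normalized fluorescence of a gene's probe in 1 sample. Levels of genes are compared within a probe only, since probes differ in brightness. A summed level, given for some gene lists, is weighted toward the brightest probes of the list and says little of the dim ones. The start of the probe is shown for the genes on which the order of the ratios turns, to give what each array spot could bind. Ahsg and Fetub are related neighbours on chromosome 16, Apoh followed Ahsg in the order, and Alb is the liver's leading transcript. Each line holds the first 30 of the probe's 60 bases, 5′ to 3′. The probes lie at chr16:22814676-22814735 (Ahsg), chr16:22854997-22855056 (Fetub), chr11:108230386-108230445 (Apoh) and chr5:91547772-91547831 (Alb), all on the plus strand of mouse build mm8 as the array files give them. No annotation of that build was used, so exon or UTR is not stated.
Ahsg: tgcaaccacgactctgaaaggtgctcttgc
Fetub: atggtccccagcactaaatgggaggtggtg
Apoh: agtcgtttccagaatcaaaattgaatgtcg
Alb: gctctgacagttgatgaaacatatgtcccc

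Ahsg had the highest ratio of the 10 genes, while its neighbour Fetub was close to no difference. Ahsg encodes fetuin-A, an inhibitor of calcification that binds calcium phosphate in plasma. Its level in the Th3 samples of arrays 1 to 4 was 4634, 2195, 2079.5 and 1894. In the control samples of the same arrays it was 623, 1173, 591 and 369. Every Th3 sample lay above every control sample, and the Th3 sample of array 1 stood well above the other three. The log2 ratios were 2.90, 0.90, 1.81 and 2.36, a mean of 1.99 ± 0.85 (n = 4) or 3.98-fold, the 4th highest of the 17628 genes. Fetub encodes fetuin-B, a related plasma protease inhibitor needed for fertility. Its level ran from 268 to 344 in Th3 and from 252 to 281 in control samples, and the groups overlapped. The Fetub ratio was 0.17 ± 0.15 (n = 4), and it was 0.09 without array 4, whose ratio of 0.39 was the highest. The ratio of Ahsg exceeded that of Fetub on 4 of 4 arrays, by 0.80 to 2.81.

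Among the carriers, Rbp4 and Ambp were higher in every Th3 sample than in any control sample, whereas Alb and Ttr overlapped. Alb, the main protein of plasma and a carrier of fatty acids and hormones, had Th3 levels of 2067, 2157, 2075 and 2377 on arrays 1 to 4. Its control levels were 939.8, 2148, 1715 and 1228. The Th3 samples lay close together, and the control sample of array 2 fell within their range. The 4 Alb ratios were 1.14, 0.01, 0.27 and 0.95, a mean of 0.59 ± 0.54 (n = 4) or 1.51-fold, and 0.31 without array 1. Rbp4 carries vitamin A in blood, bound to Ttr, which also carries thyroid hormone. The Rbp4 level was 1943, 1717, 1817 and 1913 in Th3 and 683, 856, 912 and 1382 in control samples. It varied by a coefficient of variation of 5.53% among Th3 samples and 31.2% among controls. Array 1 gave the highest Rbp4 ratio and array 4, whose control sample was the brightest of the controls, the lowest. The ratios were 1.51, 1.00, 0.99 and 0.47, with a mean of 0.99 ± 0.42 (n = 4) or 1.99-fold. Its partner Ttr had a mean ratio of 0.37 ± 0.24 (n = 4), with levels of 235 to 293 in Th3 and 174 to 258 in control samples.

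Ambp encodes a precursor that is split into alpha-1-microglobulin, a scavenger of heme, and bikunin, a protease inhibitor. Its level was 1499, 1476, 1447 and 1257 in Th3 samples and 859, 989.5, 1141 and 851 in controls. The ratios of 0.80, 0.58, 0.34 and 0.56 were the most even of the genes that did not overlap, with a mean of 0.57 ± 0.19 (n = 4) or 1.49-fold.

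**Figure D1:**
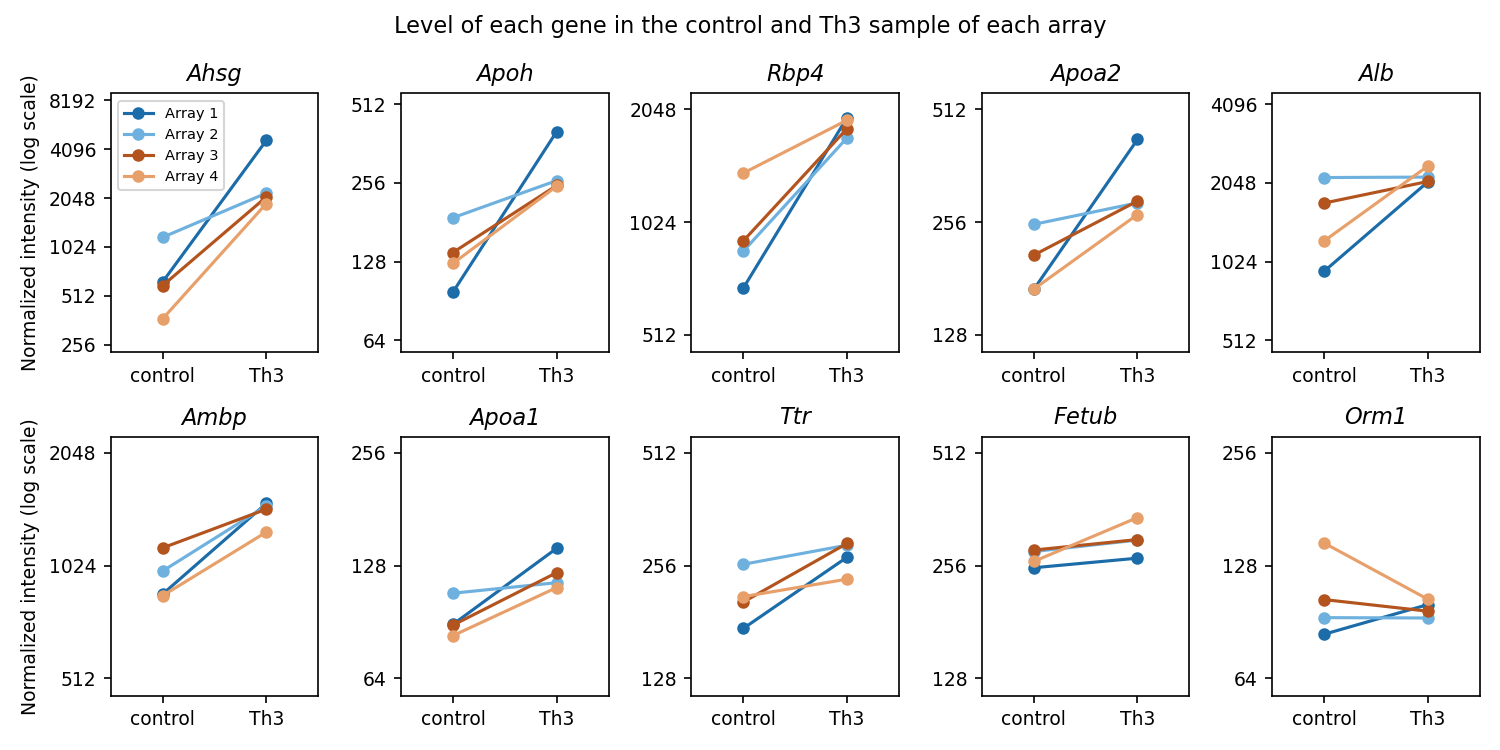
Normalized intensity (log axis, base 2, scaled per gene) of each gene's probe in the control and the Th3 sample of each of the 4 arrays, joined by a line per array. For Ahsg the lines run from control levels of 369 to 1173 up to Th3 levels of 1894 to 4634, while for Alb the line of array 2 is flat.

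All 3 apolipoproteins were higher in every Th3 sample than in any control sample, Apoh by the most. Apoh encodes beta-2-glycoprotein I, which binds anionic phospholipids and is the main target of antiphospholipid antibodies. Its level was 403, 261, 250.4 and 249 in Th3 and 97.8, 188, 139 and 126 in control samples. As for Ahsg, the Th3 sample of array 1 was the brightest, and the control sample of array 2 the brightest control. The ratios were 2.04, 0.47, 0.85 and 0.98, a mean of 1.09 ± 0.67 (n = 4) or 2.12-fold. Without array 1 the Apoh estimate was 0.69, and with Agilent's processed signals it was 1.94. Apoa2, the second protein of high-density lipoprotein, had ratios of 1.33, 0.19, 0.48 and 0.66, with a mean of 0.66 ± 0.48 (n = 4), and 0.38 without array 1. Its levels were 268 to 425 in Th3 and 169 to 252 in control samples. Apoa1, the main protein of high-density lipoprotein, was spotted 10 times per array and was dim. Its level was 112 to 142 in Th3 and 83.2 to 108 in control samples, and its control signal cleared background on 2 of 4 arrays. The Apoa1 ratios were 0.67, 0.09, 0.47 and 0.43, with a mean of 0.41 ± 0.24 (n = 4) and an SD between spots of 0.03 to 0.12 within an array. That mean rested on the handling of background: it was 1.79 with Agilent's processed signals and 0.02 with plain subtraction. The Apoa1 estimate without array 1 was 0.27.

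Orm1, alpha-1-acid glycoprotein 1, rises sharply in liver during the acute-phase response. Its level was 92.8 to 104 in Th3 and 84.0 to 147 in control samples, and only 2 of 4 control channels were well above background. The ratios were 0.26, -0.003, -0.10 and -0.50, with a mean of -0.09 ± 0.32 (n = 4), and 0.01 without array 4. Orm1 and its copies Orm2 and Orm3 are nearly identical, so the gene read by this probe is uncertain.

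**Figure D2:**
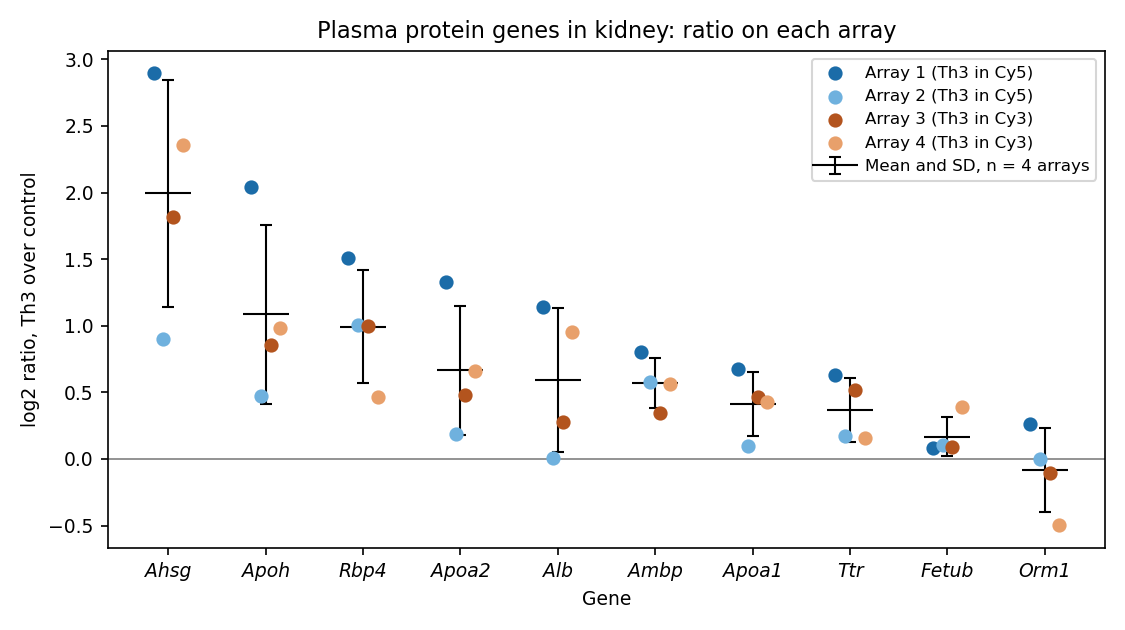
Log2 ratio of Th3 over control on each of the 4 arrays (coloured points) for the 10 genes, with the mean (bar) and SD (whisker). Ahsg stands highest at 1.99 ± 0.85, and array 1 (dark blue) is the top point for all genes but Fetub.

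The median ratio of the 10 genes was 0.58, against 0.001 for all genes tested. By array it was 0.97, 0.18, 0.47 and 0.52 on arrays 1 to 4, while the median of all genes stayed between -0.01 and 0.02. Without array 1 the median of the 10 was 0.345. With limma's moderated test and Benjamini-Hochberg adjustment at 0.05, 7 of the 10 genes passed as higher in Th3 and 0 as lower, where 10.9% of all genes passed as higher and 10.6% as lower. Alb, Fetub and Orm1 were those that did not pass. All Th3 levels lay above all control levels for 6 of the 10 genes, against 11.4% of all genes, and below them for 0, against 9.6%. The ratio was above 0 on 4 of 4 arrays for 9 of the 10, against 19.7%, and below 0 on 4 of 4 for 0, against 17.4%. Because the genes were chosen on this contrast, nothing is read from these counts.

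Whether the ratios differed between the pairs of arrays of opposite dye is a contrast that the choice did not use, and it was tested. By limma's dye term 0 of 10 genes passed, with adjusted p from 0.256 to 0.968, against 0.993% of all genes; 1 of the 10 had an unadjusted p below the 0.05 threshold. The mean of arrays 1 and 2 against that of arrays 3 and 4 was 1.90 against 2.09 for Ahsg and 0.57 against 0.61 for Alb. It was 1.26 against 0.92 for Apoh and 1.26 against 0.73 for Rbp4. Orm1 had 0.13 against -0.30, the one gene whose pairs differed in sign. A dye effect and a difference between the kidneys of the pairs cannot be told apart here.

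Liver RNA mixed into a kidney sample would bring its leading transcript, albumin, with it. The size of the rise for each gene would depend on how far its liver level exceeds its kidney level, which these arrays do not give, since they hold no liver sample. In the measured order Ahsg came first and was followed by Apoh, Rbp4, Apoa2, Alb, Ambp, Apoa1, Ttr, Fetub and Orm1. Alb was thus number 5 of 10, and it was number 5, 9, 8 and 3 on arrays 1 to 4. The ratio of Ahsg exceeded that of Alb on 4 of 4 arrays, by 1.76, 0.90, 1.54 and 1.41, a mean difference of 1.40 ± 0.36 (n = 4). Apoh also exceeded Alb on 4 of 4 arrays, by 0.49 ± 0.36, and by as little as 0.03 on array 4. The difference of Rbp4 from Alb was 0.40 ± 0.64, that of Apoa2 0.07 ± 0.24 and that of Ambp -0.02 ± 0.44. Of the 9 steps between neighbours in the order, 3 were larger than the mean of the neighbours' SDs: Ahsg to Apoh, Ttr to Fetub, and Fetub to Orm1. Each of the other steps, between neighbours from Apoh to Ttr, was within that spread. Ahsg was first under every alternative processing tried, and Alb held a place between 4 and 8.

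The order differed from array to array. On array 2 Rbp4 was first with a ratio of 1.00 and Ahsg followed with 0.90, while Alb stood at 0.01. Ahsg, Apoh, Apoa2, Alb and Apoa1, 5 of the 10 genes, were highest on array 1 and lowest on array 2, a pattern held by 3.76% of all genes. This pattern was picked after the values were seen. The pattern of Rbp4 was another one, highest on array 1 and lowest on array 4.

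**Figure D3:**
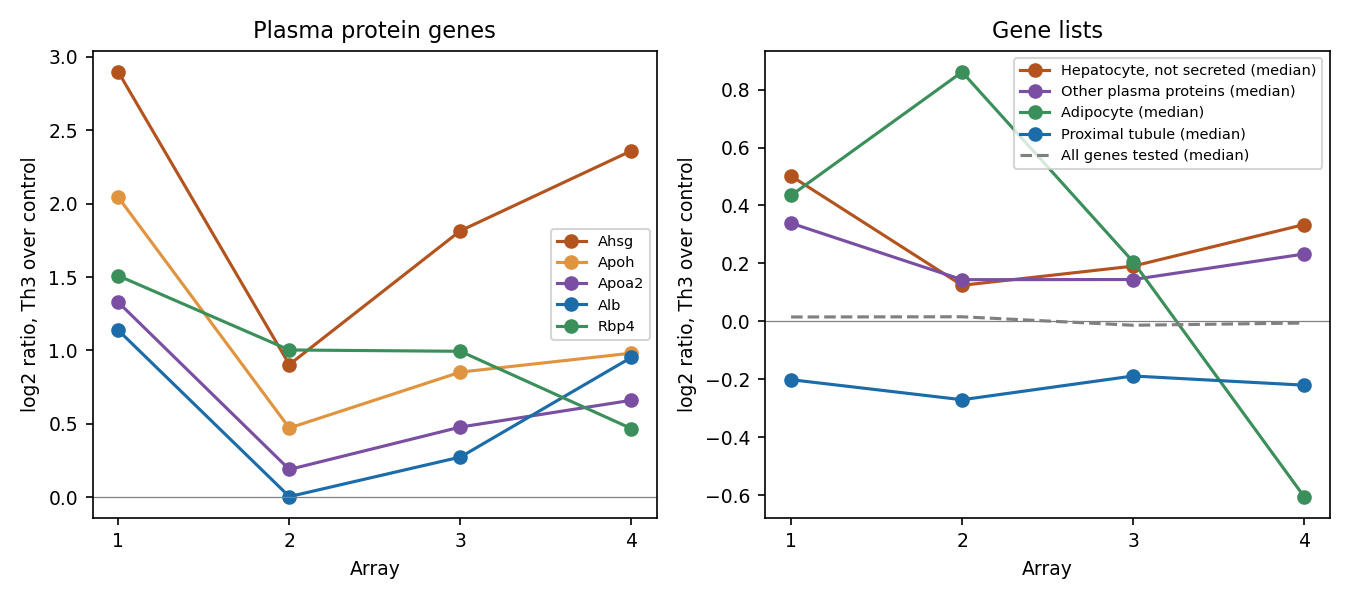
Log2 ratio of Th3 over control by array for 5 of the plasma protein genes (left) and the median over each gene list by array (right), with the median of all genes dashed. Ahsg, Apoh, Apoa2 and Alb are lowest on array 2. So are the hepatocyte (0.12), proximal tubule (-0.27) and, barely, other plasma protein (0.144, against 0.145 on array 3) lists. Rbp4 and the adipocyte list are lowest on array 4.

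Markers of hepatocytes that stay in the cell were counted next, because liver RNA would carry them too. Of 30 such genes, all on the array, 19 were measured, and 10 of these rose and 1 fell, against 10.9% and 10.6% of all genes. Their median ratio was 0.26, and by array 0.50, 0.12, 0.19 and 0.33. Uox, Slco1b2 and Cps1 were measured only because they were well above background in Th3, so that their being higher was part of how they entered. Uox, urate oxidase, rose by 1.27 ± 0.68 (n = 4, limma adjusted p = 0.0072), with levels of 228 to 435 in Th3 and 93.4 to 206 in control samples, of which 3 of 4 cleared background. Slco1b2, an uptake transporter of the sinusoidal membrane, rose by 0.91 ± 0.60 (limma adjusted p = 0.026), and Akr1c6, a steroid dehydrogenase, by 0.91 ± 0.72 (limma adjusted p = 0.0273). The Slco1b2 call was lost in 6 of 12 alternatives and that of Akr1c6 in 7 of 13. With Agilent's processed signals Uox stood at 2.22 and Slco1b2 at 1.94. A second kept probe of Uox gave a mean ratio of only 0.20 ± 0.21, with 1 of 4 control samples above background. The lowest Uox value under the alternatives was 0.74. Cps1, the first enzyme of the urea cycle, had ratios of 1.11, 0.18, 0.63 and 0.91, a mean of 0.71 ± 0.40 (limma adjusted p = 0.0182). Its level was 123 to 161 in Th3 and 71.2 to 113 in control samples, and its control signal cleared background on 1 of 4 arrays. The Cps1 mean was 0.07 with plain subtraction and 3.21 with Agilent's processed signals. Hsd3b5, a steroid reductase of male liver, fell by 0.24 ± 0.07 (limma adjusted p = 0.0268), a call lost in 7 of 13 alternatives. Cyp2c genes have near-identical copies, so their probes are uncertain.

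Other hepatocyte markers were at or near background. Cyp8b1, Cyp1a2 and Hsd17b13 were well above background in 0 of 8 samples. Arg1, arginase of the urea cycle, was so in 3 of 4 Th3 and 0 of 4 control samples, Otc and Sds in 2 Th3 and 0 control samples, and Tdo2 and Hao1 in 1 and 0. Hal was well above background in 3 Th3 and 2 control samples, Slc10a1 in 2 and 2, and Cyp7a1 in 2 and 1. The summed level of the 30 markers was 73911 to 82738 in Th3 and 79644 to 92601 in control samples. Uox, Slco1b2, Akr1c6 and Cps1 each had a level of 565.1 or less in every sample, so the sum hardly reflects them. Of the 19 measured, 5 entered only because they were well above background in Th3. Of the 14 measured in both groups 5 rose, against 1867 of the 16683 genes so measured. The 10 that rose became 5 without array 3, 2 without array 4 and 1 with the array pair as a random block, and the 1 that fell became 0 without array 1, 3 or 4. In this list 6 of 19 genes were highest on array 1 and lowest on array 2, as was Ahsg, against 3.76% of all genes. Among the 6, Slco1b2, Cps1 and Slc27a5 entered only through the Th3 channel, as did the probe used for Cyp2c37. The pattern was picked after the values were seen, so nothing is read from this count. The part of hepatocyte RNA in the ratios of the plasma protein genes was not tested.

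Of 50 other plasma protein genes of liver, 48 were on the array and 42 measured. Of these 19 rose, or 45.2% against 10.9% of all genes, and 4 fell, or 9.52% against 10.6%, with a median ratio of 0.32 against 0.001. This list was chosen with earlier results of these data known, so its share is a description and not independent support. Of the 29 measured in both groups 15 rose, against 1867 of the 16683 genes so measured. Haptoglobin, Hp, which binds free haemoglobin, rose by 1.30 ± 0.77 (n = 4, limma adjusted p = 0.00657) and was lowest on array 4 at 0.18. The chemoattractant chemerin, Rarres2, rose by 1.28 ± 0.48 (limma adjusted p = 0.0037), Lrg1, an acute-phase glycoprotein, by 1.03 ± 0.32 (limma adjusted p = 0.00189), and Serpina1b, an alpha-1-antitrypsin, by 0.94 ± 0.28 (limma adjusted p = 0.0019). Serpina1 copies are nearly identical and cannot be assigned with certainty. Genes that fell were Tcn2, the vitamin B12 carrier transcobalamin, by 0.39 ± 0.17 (limma adjusted p = 0.0131), Serpina6, which binds corticosteroids, by 0.33 ± 0.21 (0.0177), Igfals by 0.33 ± 0.41 (0.041) and Apob by 0.30 ± 0.31 (0.0244). Apob is the core protein of low-density lipoprotein. Of the 13 alternatives, 8 lost the call of Igfals, 7 that of Apob and 4 that of Serpina6. The count that fell was 2 without array 3 and 2 without array 4. With the array pair as a random block 11 rose and 1 fell. The pattern of Ahsg, highest on array 1 and lowest on array 2, was held by 6 of the 42, against 3.76% of all genes. This pattern was picked after the values were seen, so nothing is read from the count. Beside this, of 12 blood cell and macrophage markers 10 were measured, with a median ratio of -0.43. By array the median was 0.14 and -0.02 on arrays 1 and 2 but -0.52 and -0.77 on arrays 3 and 4. Of the 10 markers 2 rose (20.0%, against 10.9% of all genes) and 6 fell (60.0%, against 10.6%). Their summed level was 11881 to 22999 in Th3 and 13949 to 35246 in control samples. The part of these cells in the plasma protein ratios was not tested.

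**Figure D4:**
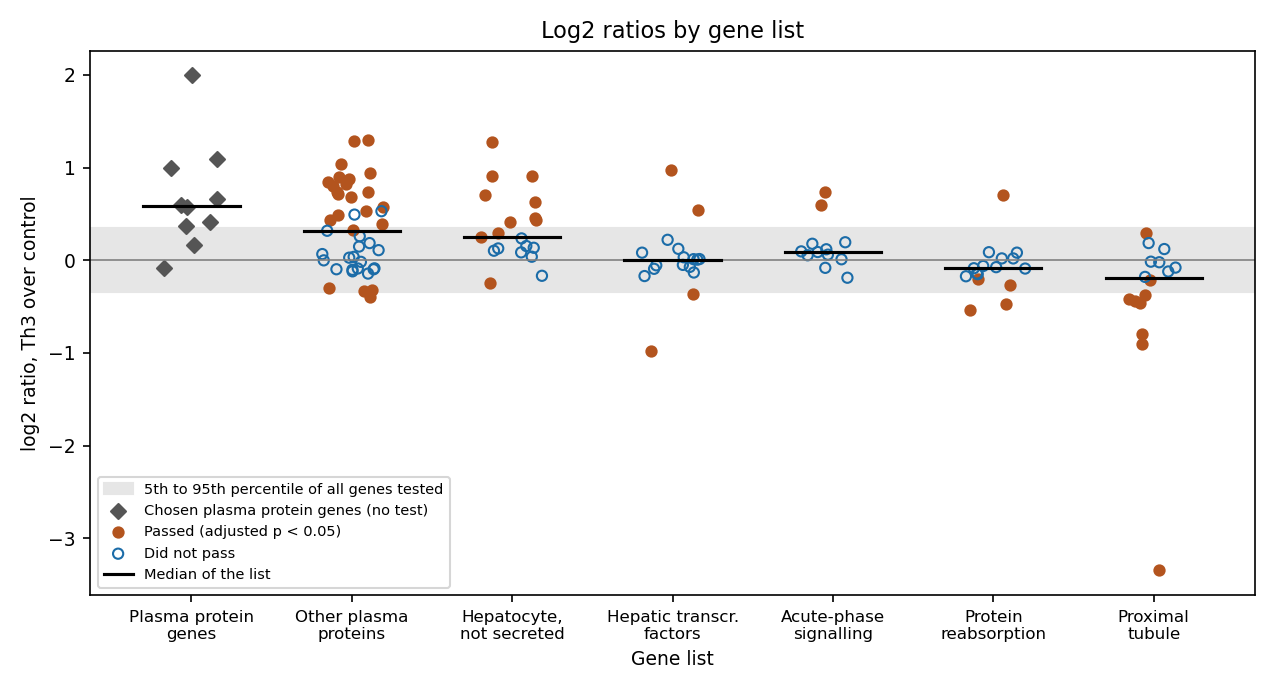
Mean log2 ratio of Th3 over control for the chosen genes (diamonds, no test) and for 6 other gene lists (filled, passed limma's test at an adjusted p of 0.05; open, did not pass), with each list's median as a bar and the 5th to 95th percentile of all genes, -0.34 to 0.35, in grey. The other plasma proteins (median 0.32) and hepatocyte genes (0.26) lie mostly above 0, the transcription factors around 0.01. All lists were chosen with earlier results of these data known.

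Transcription factors that drive these genes in liver passed about as often as other genes. Of 22 such genes 17 were measured, and 2 rose and 2 fell, 11.8% each way against 10.9% and 10.6% of all genes, with a median ratio of 0.01. Cebpd and Cebpb, C/EBP factors of the acute-phase response, rose by 0.98 ± 0.46 (n = 4, limma adjusted p = 0.00721) and 0.54 ± 0.15 (limma adjusted p = 0.00278). The Cebpd level was 9039 to 15509 in Th3 and 4916 to 6490.2 in control samples, so that the groups did not overlap. Cebpa, the C/EBP factor of mature hepatocytes, fell by 0.36 ± 0.32 (limma adjusted p = 0.0303), a call lost in 7 of 13 alternatives. Dbp, a clock-driven factor that binds the albumin promoter, fell by 0.97 ± 0.52 (limma adjusted p = 0.00598). The nuclear receptor Hnf4a had a ratio of -0.05 ± 0.08 and did not pass.

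Since C/EBP factors moved in both directions, the promoters of Alb and Ahsg were searched for the C/EBP core TTGCNNAA on both strands. The 250 bases before the start of transcription are shown for both, 5′ to 3′, from RefSeq on build GRCm38.p6, with the match, which is on the minus strand in both, in capitals. They lie at chr5:90460620-90460869 (Alb) and chr16:22891765-22892014 (Ahsg), both on the plus strand. Windows were found for 8 of the 10 genes, 11 windows in all.
Alb: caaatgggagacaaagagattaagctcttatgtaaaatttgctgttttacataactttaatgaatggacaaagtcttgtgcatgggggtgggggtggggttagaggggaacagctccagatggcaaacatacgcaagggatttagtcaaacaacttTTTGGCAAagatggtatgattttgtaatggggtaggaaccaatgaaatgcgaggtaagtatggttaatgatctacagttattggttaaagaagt
Ahsg: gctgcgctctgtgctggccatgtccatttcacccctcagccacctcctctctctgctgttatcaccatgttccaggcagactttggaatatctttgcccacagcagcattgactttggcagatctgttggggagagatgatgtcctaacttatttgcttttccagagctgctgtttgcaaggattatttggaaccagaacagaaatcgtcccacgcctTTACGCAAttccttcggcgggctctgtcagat
The match begins 94 bases before the start of Alb and 32 bases before that of Ahsg. Of 32851 mouse promoter windows of this length, 9.56% held the core. Alb also held the NF-Y box CCAAT, found in 33.8% of windows, not overlapping the core. Ahsg held no NF-Y box, and neither window held the HNF4 site CAAAGTCCA (0.384% of windows) or the TATA box TATAAA (12.4%). The windows of Fetub did not hold the C/EBP core, which says only that these letters are not there. In addition, 1 window each of Apoa2 and Rbp4 also held it. Presence of the core is a description of the sequence and not a measured binding site.

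Of 16 genes of the acute-phase pathway 12 were measured, and 2 rose, or 16.7% against 10.9% of all genes, with a median ratio of 0.09. Lcn2, lipocalin-2, a siderophore-binding protein of stressed tubules, rose by 0.74 ± 0.51 (n = 4, limma adjusted p = 0.0294), a call lost in 6 of 13 alternatives. Osmr, the receptor of oncostatin M, rose by 0.59 ± 0.22 (limma adjusted p = 0.00642). The count was 1 without array 3. Stat3 had a ratio of 0.09 ± 0.19, Socs3 one of 0.18 ± 0.26 and the interleukin-6 receptor Il6ra one of 0.05 ± 0.07, and these did not pass. Of the acute-phase products in plasma, Hp and Lrg1 rose, as given above. Saa2, an example picked after its value was seen, had a ratio of 0.07 ± 0.06 and did not pass. Its control signal cleared background on only 2 of 4 arrays, so this ratio says little.

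Among the genes listed for the recovery of plasma proteins by the proximal tubule, the median ratio was -0.09. Of 16, all measured, 1 rose (6.25%, against 10.9% of all genes) and 4 fell (25.0%, against 10.6%). Amn, amnionless, which brings cubilin to the cell surface, fell by 0.54 ± 0.02 (n = 4, limma adjusted p = 0.00204), with levels of 12209 to 13514 in Th3 and 17569 to 20042 in control samples. Lrpap1, the chaperone of megalin, fell by 0.48 ± 0.19 (limma adjusted p = 0.0107), Clcn5, an endosomal chloride transporter, by 0.27 ± 0.11 (limma adjusted p = 0.0175), and Cubn, cubilin, by 0.20 ± 0.10 (limma adjusted p = 0.0362). The Cubn call was lost in 9 of 13 alternatives and that of Clcn5 in 5. A second probe of Clcn5 gave a mean ratio of 0.16 ± 0.17. Averaging a gene's probes gave -0.14 for Lrpap1, which then did not pass. Megalin itself, Lrp2, had a ratio of -0.09 ± 0.27 at its brightest probe and did not pass. Its other probes, well above background in every sample, gave -0.27 ± 0.07, -0.40 ± 0.40 and -0.24 ± 0.18. The 1 gene of the list that rose was Abca1, which loads lipid onto Apoa1 rather than recovering protein, by 0.70 ± 0.44 (limma adjusted p = 0.00886). The 5 genes that passed became 3 without array 1. Beside this, 8 of 16 proximal tubule markers fell and 1 rose, against 10.6% and 10.9% of all genes, with a median ratio of -0.19. The markers' summed level was 508214 to 584861 in Th3 and 837362 to 888067 in control samples. This sum is weighted toward the brightest probes, so its fall may rest on a few genes. Kap, an androgen-regulated proximal tubule gene, had the lowest ratio of the 16 markers, -3.34 ± 0.32 (limma adjusted p = 0.000169). The part of tubule cell content in the ratios was not tested.

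Fat around the kidney also transcribes Rbp4. Of 15 adipocyte genes 13 were measured. Against 10.9% of all genes that rose and 10.6% that fell, 3 of the adipocyte genes rose and 3 fell, 23.1% each way. Their median by array was 0.43, 0.86, 0.21 and -0.60. It was lowest on array 4, as was Rbp4, but highest on array 2, where Rbp4 was highest on array 1. A low on array 4 was not particular to fat. The medians of the blood cell and macrophage (-0.77), other nephron (-0.13) and acute-phase (-0.0003) lists were also lowest there. Adipoq, adiponectin, had ratios of 1.29, 1.88, 1.31 and -0.47, a mean of 1.00 ± 1.02 (n = 4, limma adjusted p = 0.0408), a call lost in 6 of 13 alternatives, while Ucp1 of brown fat fell by 3.40 ± 0.93 (limma adjusted p = 0.00156). The summed adipocyte level was 83556 to 110473 in Th3 and 39012 to 149010.2 in control samples, so the groups overlapped. Of the other tissues near the kidney, 2 of 10 pancreas genes and 4 of 9 adrenal genes on the array were measured, and 0 passed by limma, also without adjustment. The part of fat RNA in the Rbp4 ratio was not tested.

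The genes whose 4 ratios lay nearest to those of Ahsg, by Euclidean distance over the 4 arrays, were Ankrd37, Aire, Slc16a3, Chil3 and Ces1c. Ankrd37, a target of hypoxia-inducible factor, was at a distance of 0.714 with ratios of 2.35, 1.28, 1.63 and 2.17. The esterase Ces1c, itself secreted by liver, had 2.24, 0.34, 1.03 and 2.05 at a distance of 1.20. Nearest to Alb were Nat8, Mthfd1l, Cyp2c40, Fabp1 and Cps1. Nat8, an acetyltransferase of kidney and liver, was at 0.285, and Fabp1, the liver fatty acid binding protein, which proximal tubule can also make, at 0.396 with ratios of 1.31, 0.18, -0.04 and 0.96. Alb and Cps1 thus lay 0.400 apart. Likeness over 4 arrays is a description only.

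In the authors' deposited table of log2 ratios the same probes gave means of 2.08 for Ahsg, 1.53 for Apoh, 1.05 for Rbp4 and 0.60 for Alb. Fetub stood at 0.19 and Orm1 at -0.20 in the authors' deposited table. Ahsg was first and Alb number 6 of 10 by those values.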

How the data were processed

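Per the labels, RNA of Th3 and control kidneys was amplified, labelled as cRNA and hybridised in pairs. The deposited scanner files hold intensities of spots and their surroundings, not normalized (software Agilent Feature Extraction 9.5.3.1), and, per the file headers, background-subtracted, dye-normalized processed intensities. The log10 ratio of Cy5 over Cy3, per the file headers, served only to check directions. The authors deposited a table of log2 ratios, for which no normalization is stated in these sources; its adjusted p-value and fold columns from the authors were not used.

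With R 4.3.3 and limma 3.58.1, signals were corrected by normexp (offset 50), normalized by loess within arrays (span 0.3, 4 iterations; control and outlier spots at weight 0) and turned to Th3 over control. A probe was kept if well above background on all 4 arrays in the Th3 or in the control channel, with a value on at least 3 arrays. The brightest of a gene's kept probes stood for it, giving 17628 genes. A Th3 and a dye term were fitted (2 residual degrees of freedom, 4.52 prior). p-values were Benjamini-Hochberg adjusted over all genes and called under 0.05. With the dye term they measure the spread within pairs of arrays only. Levels are channels after loess and Aquantile normalization. All arrays share 1 slide and 1 scan date. On simulated data for 17628 genes, 83% of changes of 1 (log2) and 44% of changes of 0.5 (log2) were recovered, with 1.55% false among the calls.

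The 10 genes and all gene lists were chosen with earlier results of these data known. Text names every chosen gene, from the other lists up to 4 passing genes in each direction (for the cell type lists only those that bear on a result; a few others serve as non-passing examples, picked after their values were seen), and the 5 nearest patterns to Ahsg and Alb. Genes were named through a RefSeq table of GRCm38.p6. Alternatives changed the background correction, normalization, filter, dye term, probe rule and variance model, or left out an array. Some values of the transcription factor list and 1 motif are not reported here.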

Additional observations from a re-analysis of the deposited data

Results flagged for a closer look

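In 5 of 74 series of 4 values, 1 sample lay far from the others by Dixon's test, which chance does in about 1 of 20. The Th3 sample of array 1 did so at 3 of the plasma protein genes: its level was 4634 for Ahsg, 402.9 for Apoh and 424.8 for Apoa2, above the other Th3 samples each time. The Fetub ratio of array 4 was 0.388, above those of the other arrays. The Ucp1 ratio of array 2 was -2.013, nearer 0 than on the other arrays.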

How the results depend on the processing

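The 4 arrays limit every value, and dim probes depend on how background is handled. The median ratio of the 10 genes moved by less than its spread over arrays under every alternative run, and no ratio of a plasma protein gene changed sign other than that of Orm1, from -0.09 to 0.01 without array 4. Of the summary counts and medians, 95 values kept within their limits and 47 moved; the cause was not tested. With plain background subtraction, 299 genes passed as higher and 316 as lower, 0 by the dye term, and in the lists 4 other plasma proteins rose and 0 fell, 0 hepatocyte genes rose and 0 fell, and 0 transcription factor, 0 acute-phase and 2 reabsorption genes passed. With the array pair as a random block, chosen after seeing the data (correlation within pairs 0.182), these were 644 higher, 553 lower, 11 and 1, 1 and 0, and 1 acute-phase and 2 reabsorption genes. Without the dye term, 1102 were higher and 888 lower, 1 other plasma protein fell and 5 hepatocyte genes rose. With median centring, which leaves intensity-dependent dye bias in place, 1144 were lower, 12740 passed the dye term, 1 other plasma protein and 0 hepatocyte genes fell, and 3 reabsorption genes passed. With no filter, 12 genes passed the dye term, 5 hepatocyte genes rose and 1 acute-phase gene passed. With probes required in both channels, 5 hepatocyte genes rose. With Agilent's processed signals, 4 genes passed the dye term and 0 hepatocyte genes fell; with an intensity trend and robust variances, 1 acute-phase gene passed. Leaving out 1 array gave 0 to 496 genes passing the dye term, 2 to 11 hepatocyte genes that rose and 0 to 1 that fell, 2 to 4 other plasma proteins that fell, 3 to 4 reabsorption genes and 1 to 2 acute-phase genes. The dye term, given as coded (positive where arrays 1 and 2 are higher), was -0.09 for Ahsg and ran from -0.59 to 0.40 with 1 array left out, and it turned with median centring for Alb (0.46) and Fetub (0.19). Each ratio already pairs the Th3 and control sample of an array, so no further block by replicate number was fitted.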
